A study of Rattus norvegicus with 3 samples.

Results

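The renin-angiotensin genes and peptidases described here were 8 genes: the precursor Agt, the converting enzyme Ace, the receptors Agtr1a and Agtr1b, the (pro)renin receptor Atp6ap2, and the membrane peptidases Mme, Enpep and Anpep. They were chosen by name, and their spots were found through the RefSeq accession that each spot carries. All 8 genes were on the array, with 9 distinct sequences between them, and all 8 were among the 14179 genes tested. Of these, 8908 carried a gene symbol, and the other 5271 were sequences counted by accession or probe, which are included wherever all genes are named. Total RNA came from the non-tumor kidney of male Sprague-Dawley rats that drank water with 200 ppm of gamma-aminobutyric acid (GABA), the G200 group, or that served as the control without it. The rats were 5 weeks old at the start, had 1 week of acclimation and received GABA for 3 weeks. The labels give 3 rats to each group and no genetic change in either. The kidney markers Umod and Slc34a1 were well above background in both channels of all 3 arrays. RNA of both groups was hybridized together on 3 Agilent arrays, with Cy3, the green dye, on the control RNA and Cy5, the red dye, on the G200 RNA each time, and the arrays are called replicates 1, 2 and 3. The dyes were exchanged on 0 arrays, so an effect of the dye and an effect of GABA cannot be told apart.

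In this system, renin from the juxtaglomerular cells of the kidney cuts angiotensinogen, the product of Agt, to angiotensin I, and the converting enzyme ACE trims that to angiotensin II. Angiotensin II acts on AT1 receptors of vessels, mesangial cells and tubules to constrict vessels and retain sodium, and it also restrains the release of renin. Peptidases on the brush border of the proximal tubule and on podocytes then shorten the angiotensins and many other peptides, so the kidney both makes and destroys these hormones.

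Of the 8 genes, 5 were higher in G200 at an adjusted p under 0.05, against 11.5% of all genes tested. They were both receptor genes and all 3 peptidase genes. Only 1 member, Agt, was lower, against 26.0% of all genes, and 37.5% of all genes passed in either direction. Over the 8908 genes with a symbol these shares were 11.7%, 22.5% and 34.2%. Ace and Atp6ap2 did not pass. The members' median log2 ratio, G200 over control, was 0.49, and that of all genes was −0.05 (−0.07, −0.04 and −0.05 on replicates 1, 2 and 3). Members were chosen by name with earlier results in view, so their share is given as a description. In 6 of the 8 genes the control and G200 levels of the 3 arrays did not overlap, which held for 48.9% of all genes and for 46.5% of those with a symbol. Here and below, the 3 control levels count as repeat readings of 1 control sample. Overlap of levels therefore does not take in the spread between control rats. None of the 6 members past the threshold changed sign under the 16 other ways of processing, although Agt came close to 0 without dye normalization (−0.07). Their calls were less stable: in both tests that took each gene's variance alone, that of the methods between the channels and that of the log ratios, 0 members were higher and 0 lower (1 and 1 by each at an unadjusted p under 0.05), and in limma's test without replicate 3, 2 were higher.

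**Figure D1:**
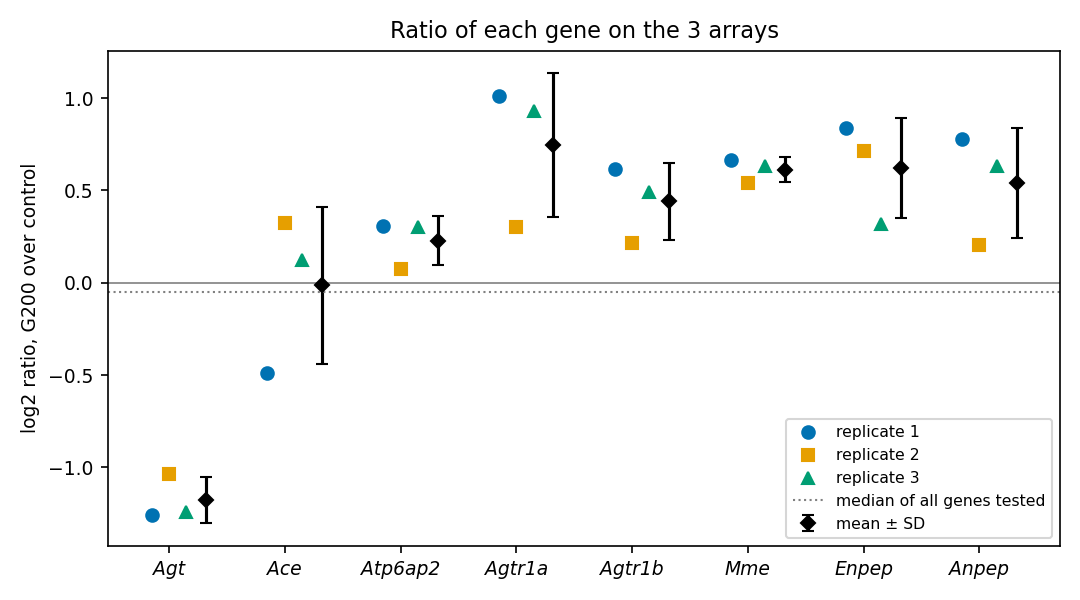
Log2 ratio of G200 over control (y axis) for the 8 members, with 1 point for each array and a diamond with bars for the mean ± SD of the 3 arrays; the dotted line is the median of all genes tested, −0.05. All 3 points of Agt lie below 0 and all 3 points of Agtr1a, Agtr1b, Mme, Enpep and Anpep lie above it, whereas Ace has points on both sides, and with no dye normalization the mean of Agt moves to −0.07.

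Agt encodes angiotensinogen, the only known precursor of the angiotensins, which is made mostly in liver and also in the proximal tubule. Its log2 intensity in the control channel was 12.13, 12.18 and 12.18 on replicates 1, 2 and 3. In the G200 channel it was 10.87, 11.15 and 10.94. Every G200 value lay below every control value, and the 3 ratios (−1.26, −1.04 and −1.24) spanned 0.22. The mean log2 ratio was −1.18 ± 0.12 (SD, n = 3), a level 2.26-fold lower in G200 (95% confidence interval of the log2 ratio −1.36 to −0.996, adjusted p = 0.000734). In bulk kidney RNA, fewer cells of a type and less RNA per cell cannot be told apart.

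Before any dye normalization the Agt spot, less its local background, read 2849, 3297 and 3102 intensity units in the control channel and 3627, 2443 and 2805 in the G200 channel. The raw readings of the channels were thus of similar size. The median net reading of all spots was 35, 37 and 35.5 in green and 54.5, 29.5 and 39 in red, so red was the brighter on replicates 1 and 3 and the dimmer on replicate 2. Over the 3 arrays the median log2 ratio of all genes was 0.62 with no dye normalization and 0.27 with each array only centred on its median, in place of −0.05 with loess. Against the median of all genes, Agt stood at −1.13 with loess and at −0.69 in both other scalings, which differ only by a constant per array. Its own ratio was −0.42 with median centring (adjusted p = 0.0489) and −0.07 with none (adjusted p = 0.798).

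Because Agt is best known from liver, liver marker genes were set beside it. Of 18 such genes 17 were tested, and all 17 were lower in G200, with a median log2 ratio of −3.06 (−1.60, −3.14 and −4.27 on replicates 1, 2 and 3). All 17 stayed negative with median centring (median −2.29) and with no dye normalization (−1.93). Their summed intensity was 209700, 240500 and 249800 in the control channel and 61140, 24850 and 9609 in the G200 channel. Ttr, the thyroid hormone carrier transthyretin, was the brightest in control, and the 1 gene not tested, Tat, was not well above background in either channel of any array. The ratio of Alb, serum albumin, was −2.06, −3.74 and −5.67 on replicates 1, 2 and 3. The part of these genes in the Agt result was not tested.

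Kng1 and Kng2, which encode kininogens, the liver-made precursors of the kinins, were lower by −1.47 ± 0.45 and −1.46 ± 0.59 (SD, n = 3; adjusted p = 0.00189 and 0.00422). Kng1 stood at −1.09, −1.36 and −1.97 on the 3 arrays and Kng2 at −0.82, −1.59 and −1.98. Both were lowest on replicate 3, as the median of the liver markers was, and there Kng1 was not well above background in G200. The part of the liver markers in these results was not tested. Kng1 and Kng2 stayed negative in each other way of processing that tested them, but the size depended on the processing. With the deposited log ratio, with an offset of 0 and with no dye normalization Kng1 was at −3.50, −2.56 and −0.79. Kng2 was at −2.71, −2.28 and −0.71, the last no longer past the threshold (adjusted p = 0.0901).

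**Figure D2:**
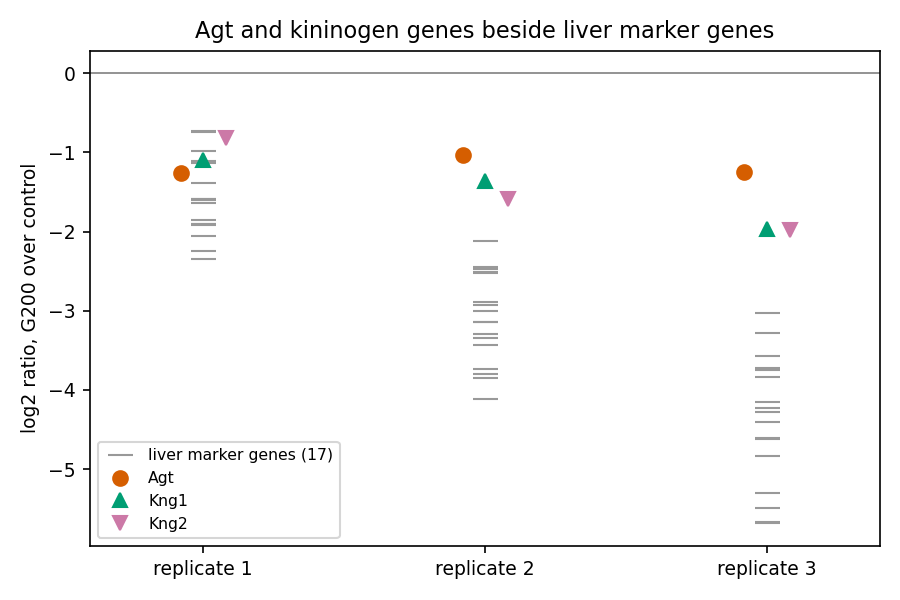
Log2 ratio of G200 over control (y axis) on each of the 3 arrays (x axis) for 17 liver marker genes (grey dashes) and for Agt, Kng1 and Kng2 (coloured points, set side by side for legibility). Liver markers spread down to −5.68 on replicate 3, and Agt lies between −1.26 and −1.04. With no dye normalization the mean of Agt is −0.07. The part of the liver markers in the Agt result was not tested.

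Ace encodes the peptidase that makes angiotensin II and breaks down bradykinin. The brighter of its 2 sequences on the array read 7.495, 7.505 and 7.497 in control and 7.004, 7.830 and 7.620 in G200. Control was almost constant, and the G200 channel lay below it on replicate 1 and above it on the other arrays. The mean ratio was −0.01 ± 0.43 (SD, n = 3; adjusted p = 0.947), with a 95% confidence interval from −0.39 to 0.36. A change of that size in either direction is therefore within the error, and the sign turned with the processing (0.088 with the deposited log ratio, 0.39 with median centring, 0.74 with no dye normalization). The other Ace sequence was well above background in control on 0 arrays and in G200 on 1, and its ratios were 0.20, −0.03 and 0.26.

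Atp6ap2, the (pro)renin receptor, binds renin and its precursor and is also an accessory subunit of the vacuolar proton pump. It read 7.38, 7.35 and 7.37 in control and 7.69, 7.43 and 7.67 in G200. All 3 G200 values were above all control values, on replicate 2 by a small margin. The mean ratio of 0.23 ± 0.13 (SD, n = 3) missed the threshold (adjusted p = 0.0592). It was past it without replicate 2 (0.30, adjusted p = 0.0359), with median centring (0.64) and with no dye normalization (1.00). Atp6ap1, the other accessory subunit of the same pump, stood at −0.21 ± 0.13 (adjusted p = 0.0753), and was past the threshold as lower without replicate 2 (−0.28, adjusted p = 0.0460) but as higher with median centring (0.53, adjusted p = 0.0303) and with no dye normalization (0.89, adjusted p = 0.0110).

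The AT1 receptor is encoded by a pair of genes in rodents, Agtr1a and Agtr1b. In kidney Agtr1a is the main form, and Agtr1b is best known from adrenal and pituitary. The 250 bases before the start of each gene are shown because both receptor genes rose. They are from the RefSeq promoter table of build GRCr8, at chr17:34435433-34435682 and chr2:104849263-104849512, both genes on the minus strand, and are printed 5′ to 3′ along the gene. Capitals mark matches, on either strand, to the motif TATAAA that is called the TATA box, to GGGCGG that is called the GC box, and to the CCAAT box, whose letters are its name.
Agtr1a: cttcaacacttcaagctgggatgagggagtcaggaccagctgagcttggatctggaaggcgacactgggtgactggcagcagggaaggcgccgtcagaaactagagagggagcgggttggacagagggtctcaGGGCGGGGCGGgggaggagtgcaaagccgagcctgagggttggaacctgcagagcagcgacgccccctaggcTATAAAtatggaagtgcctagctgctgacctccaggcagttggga
Agtr1b: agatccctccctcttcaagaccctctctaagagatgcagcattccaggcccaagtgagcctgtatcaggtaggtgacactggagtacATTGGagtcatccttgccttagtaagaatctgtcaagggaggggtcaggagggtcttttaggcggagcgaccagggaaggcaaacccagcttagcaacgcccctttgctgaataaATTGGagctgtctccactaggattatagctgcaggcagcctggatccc

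The Agtr1a stretch holds a TATA box that begins 45 bases before the start and 2 overlapping GC boxes, with 60.8% G and C. The Agtr1b stretch has neither, and instead holds 2 CCAAT boxes on the opposite strand, at 163 and 48 bases before the start, with 52.8% G and C. None of the motifs searched was thus shared by the receptor genes in this window.

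Agtr1a was spotted 10 times on each array, and 9 of the spots were used, since 1 carried an outlier mark each time. Net of background, these 9 spots read between 159.5 and 212 in control on replicate 1, between 169 and 203.5 on replicate 2, and between 169 and 196 on replicate 3. In G200 they read between 1049.5 and 1301.5, between 304 and 381.5, and between 712 and 781. Before dye normalization, the spots of an array thus lay closer together than the G200 channels of the 3 arrays did.

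After normalization, Agtr1a read 8.33, 8.27 and 8.27 in control and 9.34, 8.56 and 9.20 in G200. The levels of the channels did not overlap, and replicate 2 showed the smallest rise. The mean ratio was 0.75 ± 0.39 (SD, n = 3), 1.68-fold higher in G200 (95% confidence interval 0.40 to 1.09, adjusted p = 0.0108). Among all genes tested this ratio stood at percentile 99.7.

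Agtr1b read 7.16, 6.93 and 7.14 in control and 7.77, 7.14 and 7.63 in G200. Each array showed a rise (0.62, 0.21 and 0.49), but the lowest G200 value lay within the control values, so the levels overlapped. The mean ratio was 0.44 ± 0.21 (SD, n = 3), 1.36-fold higher (95% confidence interval 0.21 to 0.67, adjusted p = 0.0145). With the deposited log ratio and with an offset of 0 it was at 0.79 and 0.68, both above that interval. Without replicate 3 neither receptor gene passed (adjusted p = 0.0826 for Agtr1a and 0.105 for Agtr1b), and Agtr1b also missed the threshold when the channels were fitted without the array as a block (adjusted p = 0.0865). The coding sequences of the receptors are much alike, and binding of each RNA to the other's spots was not tested.

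Since Agtr1b is known from the adrenal cortex, adrenal markers were set beside it. Of 8 markers 3 were tested, with a median of −0.26 and none higher. Cyp21a1 (−0.43, adjusted p = 0.00686) and Fdx1 (−0.26, adjusted p = 0.0381), which serve steroid synthesis, were lower. Both turned positive with no dye normalization (0.23 and 0.71, beside a median of 0.62 for all genes). Fdx1 did so also with median centring (0.36, beside 0.27). Neither passed without replicate 3 (adjusted p = 0.0607 and 0.203), and Fdx1 did not without replicate 2 (0.112), with the deposited log ratio (0.116) or with an offset of 0 (0.0765). Cyp21a1 did not pass with median centring (−0.13, adjusted p = 0.386) and was at −0.79 with the deposited log ratio. Hsd3b1 was at 0.16 and did not pass. It was past the threshold as higher with median centring (0.53, adjusted p = 0.0255) and with no dye normalization (0.88, adjusted p = 0.0101). Fdx1 was also past it as higher with no dye normalization (adjusted p = 0.0347). The summed intensity of the tested adrenal markers was 843.5, 860.9 and 862.8 in control and 772.8, 733.7 and 728.5 in G200. This sum leans on Fdx1, with a mean control log2 level of 9.09, against 7.29 for Cyp21a1 and 7.25 for Hsd3b1. The defining enzymes Cyp11b1 and Cyp11b2, with Star and Mc2r, were not well above background on any array, and Cyp11a1 was so in G200 on 1 array.

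The peptidases Mme (neprilysin), Enpep (aminopeptidase A) and Anpep (aminopeptidase N) sit in the plasma membrane with their active sites outside the cell. Neprilysin makes angiotensin 1-7 and degrades natriuretic peptides, aminopeptidase A removes the first residue of angiotensin II to give angiotensin III, and aminopeptidase N takes that on to angiotensin IV. The promoter stretches of these genes are shown because all 3 rose together. They lie at chr2:149872247-149872496 (plus strand), chr2:220526219-220526468 (minus strand) and chr1:143195102-143195351 (minus strand) in GRCr8. Capitals mark GC boxes as above and, in Anpep, the letters GTTAAT, a half-site of the hepatocyte nuclear factor 1 (HNF1) motif.
Mme: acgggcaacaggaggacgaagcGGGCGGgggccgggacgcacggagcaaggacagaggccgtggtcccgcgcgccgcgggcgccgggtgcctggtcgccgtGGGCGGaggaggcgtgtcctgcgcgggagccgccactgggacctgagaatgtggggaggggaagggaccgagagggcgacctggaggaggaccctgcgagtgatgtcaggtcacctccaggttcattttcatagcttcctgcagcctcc
Enpep: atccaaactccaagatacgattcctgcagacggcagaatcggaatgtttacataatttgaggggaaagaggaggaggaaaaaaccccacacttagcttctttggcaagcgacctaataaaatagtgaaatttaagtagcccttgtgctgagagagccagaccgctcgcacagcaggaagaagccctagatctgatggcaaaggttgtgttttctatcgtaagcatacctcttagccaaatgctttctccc
Anpep: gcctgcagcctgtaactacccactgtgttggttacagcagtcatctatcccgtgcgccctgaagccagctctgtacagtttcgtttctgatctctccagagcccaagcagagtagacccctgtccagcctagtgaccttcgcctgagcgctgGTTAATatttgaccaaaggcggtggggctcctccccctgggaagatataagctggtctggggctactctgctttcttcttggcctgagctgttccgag

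The Mme stretch was rich in G and C (70.4%) and held 2 GC boxes, at 228 and 149 bases before the start. The Enpep stretch, at 45.2% G and C, held none of the motifs. The Anpep stretch (55.6%) held the HNF1 half-site 98 bases before the start.

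Mme read 10.45, 10.34 and 10.31 in control and 11.11, 10.88 and 10.94 in G200. The levels of the channels were well apart and the 3 ratios (0.67, 0.54 and 0.63) were close. With 0.61 ± 0.07 (SD, n = 3) Mme was 1.53-fold higher, and had the smallest SD of the 8 genes (95% confidence interval 0.45 to 0.77, adjusted p = 0.00190). It passed in each of the fits without a replicate, at an adjusted p of at most 0.0285. Its net readings before normalization were 870.5, 893 and 830.5 in control and 4246.5, 1988 and 2764.5 in G200, so the channels differed far more before the dye correction than after it.

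Enpep read 9.39, 9.44 and 9.43 in control and 10.23, 10.15 and 9.75 in G200. The levels of the channels did not overlap, and here replicate 3, not replicate 2, had the lowest ratio (0.32, against 0.84 and 0.71). The mean ratio was 0.62 ± 0.27 (SD, n = 3), 1.54-fold higher (95% confidence interval 0.36 to 0.89, adjusted p = 0.00835), and it passed in each of the fits without a replicate, at an adjusted p of at most 0.0404.

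Anpep read 8.32, 8.26 and 8.33 in control and 9.10, 8.47 and 8.97 in G200. Again the levels of the channels did not overlap, and replicate 2 was the lowest G200 value. The mean ratio was 0.54 ± 0.30 (SD, n = 3), 1.45-fold higher (95% confidence interval 0.26 to 0.82, adjusted p = 0.0155). Without replicate 3 it no longer passed (0.49, adjusted p = 0.108). Among all genes tested, the ratios of Mme, Enpep and Anpep stood at percentiles 99.2, 99.3 and 98.6. In order of mean ratio the members that rose were Agtr1a, Enpep, Mme, Anpep and Agtr1b, and neighbours in that order differed by less than the larger of their SDs.

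**Figure D3:**
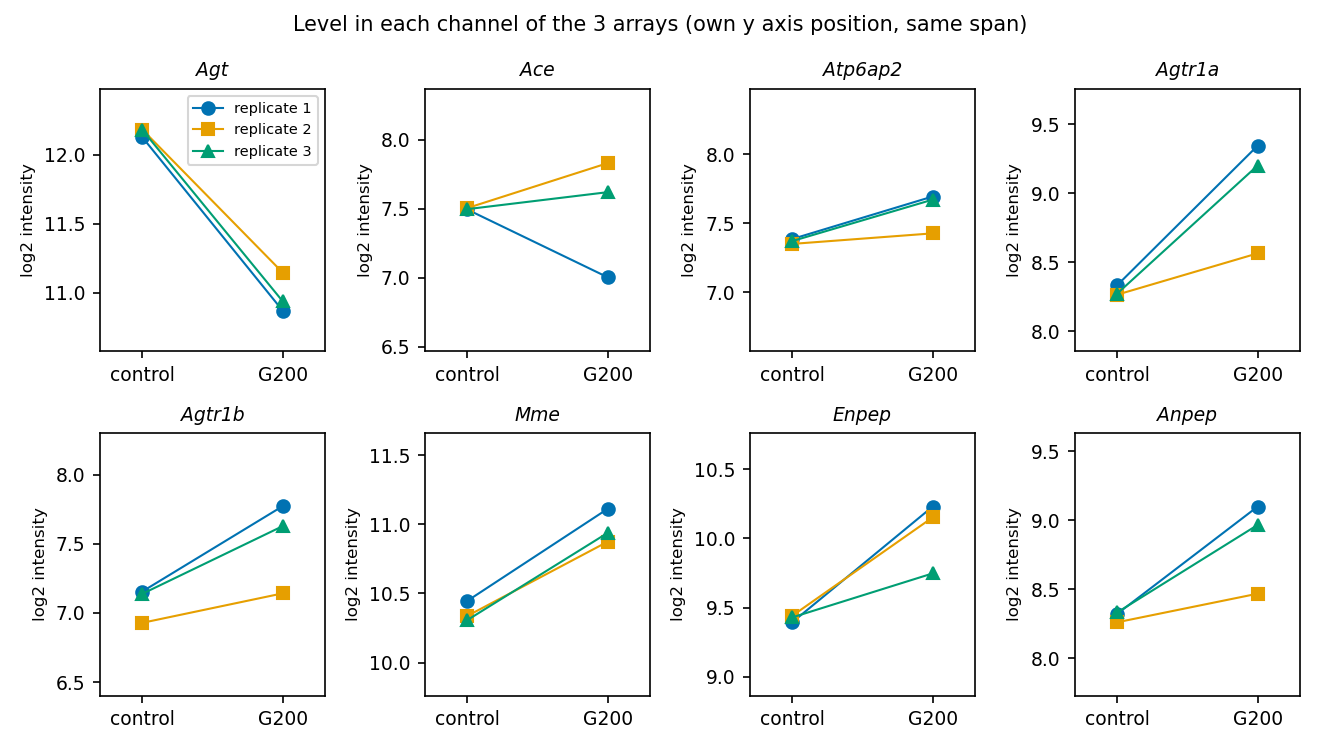
Normalized log2 intensity (y axis, each panel placed at its own level but with the same span) in the control and the G200 channel of the 3 arrays for the 8 members; a line joins the channels of an array. Control values lie close together in most panels, and the arrays differ mainly in the G200 channel, as for Agtr1a with 9.34, 8.56 and 9.20; the fall of Agt shrinks to −0.07 with no dye normalization.

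Promoter entries were matched for 7 of the 8 members. In 33469 promoter stretches of the same length, the TATA box letters were found in 12.9%, the CCAAT letters in 34.0%, the GC box in 30.5%, the HNF1 half-site in 6.5% and the letters ACGTG, the core of the hypoxia response element, in 16.6%, both strands read. The GC box was present in Ace, Agtr1a, Atp6ap2 and Mme, the TATA box in Ace and Agtr1a, the CCAAT box in Agtr1b and Atp6ap2, and ACGTG in Atp6ap2. A GC box and a CCAAT box overlap in Atp6ap2, and GC boxes overlap in Ace. No motif was common to the 5 genes that rose. A match is a run of letters, and whether a factor binds there was not tested.

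The list of other genes of the system held 18 genes, 17 of them on the array and 10 tested. In limma's test 0 were higher (0 also at an unadjusted p under 0.05), 3 were lower (4 unadjusted), and their median log2 ratio was −0.04 (−0.25, −0.03 and −0.21 on replicates 1, 2 and 3), beside −0.05 for all genes. With median centring it was 0.47 and with no dye normalization 0.82, beside 0.27 and 0.62 for all genes. Among these were Agtrap, whose product binds the AT1 receptor and promotes its uptake into the cell (−0.44 ± 0.19, adjusted p = 0.0131), and Thop1, a peptidase that makes angiotensin 1-7 from angiotensin I (−0.32 ± 0.14, adjusted p = 0.0234). The fall of both turned to a positive ratio with median centring (0.29 for each) and with no dye normalization (0.64 and 0.65). Against the median of all genes they stood at 0.02 and 0.03 in those scalings. With the deposited log ratio both were negative (−0.38 and −0.39) but not past the threshold (adjusted p = 0.0614 and 0.0621). Without replicate 3 neither passed (adjusted p = 0.106 and 0.133), nor did Thop1 without replicate 1 (0.0896), without the array as a block (0.0756), with plain background subtraction (0.0547) or with an offset of 0 (0.0555).

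The peptidases Ctsa (0.22 ± 0.37), Prep (0.03 ± 0.25) and Nln (−0.08 ± 0.15) and the mineralocorticoid receptor Nr3c2 (0.14 ± 0.18) did not pass. Klk1, a tissue kallikrein with near-identical relatives, stood at 0.90 ± 1.48 (adjusted p = 0.192), which rested on replicate 1 (2.60, against −0.11 and 0.21). Without that replicate it was at 0.05.

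Of the listed genes not tested, the receptors Agtr2, Mas1 and Mrgprd and the peptidases Cma1, Ctsg, Cpa3 and Prcp were not well above background on any array. No spot was matched to Lnpep, the angiotensin IV binding aminopeptidase. Of the angiotensin receptors listed, those of type AT1 were the ones well above background.

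Relatives of the peptidases were also read. Enpep and Anpep belong to the M1 family, of which 6 genes were tested and these 2 were the only ones past the threshold (at an unadjusted p under 0.05, 3 higher and 1 lower), with a family median of 0.15. The others were Lta4h (0.20, above 0 on all 3 arrays, adjusted p = 0.0658), Rnpep (0.10), Npepps (−0.03) and Rnpepl1 (−0.20). Of the M13 family Mme and Ece1, an endothelin-converting enzyme, were tested, and Ece1 was at −0.01 ± 0.03 (adjusted p = 0.866; 0.074 with median centring and 0.43 with no dye normalization).

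Other peptidases of the brush border and cell membrane were also listed, and 3 of 6 tested were higher and none lower in limma's test (3 and 1 at an unadjusted p under 0.05; median 0.17). Mep1a, the alpha subunit of meprin, read 9.13, 8.99 and 8.99 in control and 9.82, 9.46 and 9.60 in G200. Its ratio of 0.59 ± 0.11 (SD, n = 3; adjusted p = 0.00282) was close to that of Mme in size and spread. Dpp4, which cuts incretins and other peptides, was at 0.35 ± 0.12 (adjusted p = 0.0157), and the meprin beta subunit Mep1b at 0.32 ± 0.23 (adjusted p = 0.0461). Dpp4 lost the threshold without replicate 3 (adjusted p = 0.129) and Mep1b without replicate 2 or 3 (adjusted p = 0.158 and 0.243), and both lost it with the deposited log ratio (adjusted p = 0.0557 and 0.0975). Mep1b also lost it with plain background subtraction (0.0894), with an offset of 0 (0.0862) and with both colours required above background (0.0516). Mep1a, Dpp4 and Mep1b were at 1.24, 1.08 and 1.09 with median centring, and at 1.59, 1.44 and 1.45 with no dye normalization. Dpep1 (0.02), Ggt1 (−0.08) and Xpnpep2 (−0.18), further brush border enzymes, did not pass.

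These peptidases are carried mainly by the proximal tubule and in part by podocytes, and markers of both that are not peptidases were set beside them. Of 17 markers of the proximal tubule 15 were tested, 3 were higher, 1 was lower, 11 did not pass (at an unadjusted p under 0.05, 7 higher and 1 lower), and the median was 0.23 (0.35, 0.10 and 0.19 on replicates 1, 2 and 3). The endocytic receptor genes Cubn (0.45, adjusted p = 0.0353) and Lrp2 (0.26, adjusted p = 0.0333) and the water channel gene Aqp1 (0.41, adjusted p = 0.00631) were higher, but none of the 3 passed without replicate 3 (0.30, 0.24 and 0.42, adjusted p = 0.192, 0.193 and 0.0615). Cubn also lost the threshold without replicate 1 (adjusted p = 0.0640), with the deposited log ratio (0.0666) and without the array as a block (0.186). Lrp2 lost it without replicate 2 (0.0946), with the deposited log ratio (0.0792) and with an offset of 0 (0.0816). A second Lrp2 sequence, also well above background in both channels of all arrays, stood at −0.13, and the mean of both was 0.061 (adjusted p = 0.614). The transcription factor gene Hnf4a was lower (−0.32). With no dye normalization its ratio was positive at 0.15, below the median of all genes there (0.62). It did not pass without replicate 3 (adjusted p = 0.109) or with median centring (−0.21, adjusted p = 0.176). With the deposited log ratio and with an offset of 0 it was at −0.62 and −0.68. The summed intensity of these markers was 60190, 57960 and 61700 in control and 68730, 75010 and 64470 in G200, with the amino acid transporter gene Slc3a1 the brightest, and Slc34a3 and Slc5a1 were not tested. Of 8 podocyte markers 7 were tested. Their median was 0.36, with 0.72 on replicate 1 and 0.16 and 0.24 on replicates 2 and 3. Of these 7, 6 had a positive mean, and in limma's test 1 was higher and 0 lower (4 and 0 at an unadjusted p under 0.05). The part of either list in the result of the peptidases was not tested.

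AT1 receptors are also found in mesangial cells and vascular smooth muscle. Of 10 markers of these cells 9 were tested, with 2 higher, 1 lower and a median of 0.11. The other 6 did not pass: Acta2 (−0.13), Tagln (0.18), Myh11 (0.01), Des (0.11), Pdgfrb (0.05) and Mcam (0.20). Pdgfra (0.44) and Itga8 (0.34) were higher, and Cspg4 (−0.32) was lower. Cspg4 was positive with median centring (0.15) and with no dye normalization (0.51), but below the median of all genes there (0.27 and 0.62). Without replicate 3 none of Pdgfra, Itga8 and Cspg4 passed (adjusted p = 0.0776, 0.168 and 0.0863), and without replicate 1 Itga8 and Cspg4 did not (0.0976 and 0.0759). With the deposited log ratio Itga8 was at 0.65 and Cspg4 did not pass (adjusted p = 0.0573). Their summed intensity was 1836, 1936 and 1931 in control and 2049, 2010 and 2318 in G200, with Pdgfra the brightest, and Cnn1 was not well above background on any array. Their part in the result of the receptor genes was not tested.

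**Figure D4:**
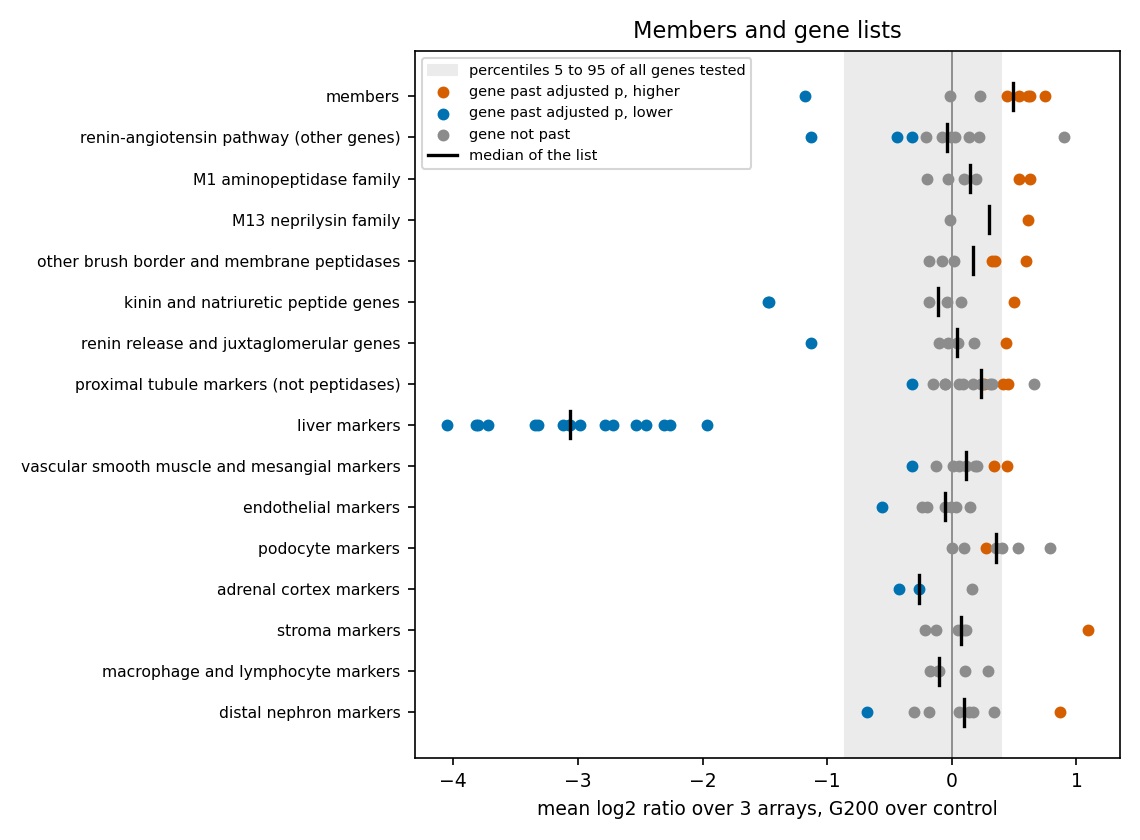
Mean log2 ratio over the 3 arrays (x axis) of each tested gene of the members and of the gene lists (rows), coloured by whether it passed an adjusted p under 0.05, with a bar at the median of each list; the grey band spans percentiles 5 to 95 of all genes tested. The median of the members lies at 0.49 and that of the liver markers at −3.06; with no dye normalization the median of all genes moves from −0.05 to 0.62, and genes of most lists near 0 change sign.

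Among genes that govern renin release or mark juxtaglomerular cells, 7 of 12 were tested, 1 was higher and 1 lower (median 0.04). Casr, the calcium-sensing receptor, whose activation restrains renin release, was higher in G200 at 0.44 ± 0.09 (SD, n = 3; adjusted p = 0.00628). It read 10.57, 10.48 and 10.46 in control and 10.90, 10.94 and 10.97 in G200, with no overlap, but did not pass without replicate 3 (0.40, adjusted p = 0.0695). With median centring Casr was at 1.16 and with no dye normalization at 1.51. In which cells of the kidney Casr changed was not tested. Ptgs2, Nos1, Adrb1, Akr1b7 and Pde1c were not well above background on any array. Of the kinin and natriuretic peptide genes, 6 of 14 were tested (median −0.11), and besides the kininogen genes only Ednrb, an endothelin receptor, passed, at 0.50 ± 0.31 (adjusted p = 0.0220). It did not pass without replicate 3 (0.39, adjusted p = 0.142) or when the channels were fitted without the array as a block (0.0755), and it was at 0.90 with the deposited log ratio.

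Of the 6 members with a mean above 0, 5 had their lowest ratio on replicate 2, and Enpep was the exception. Among all genes with a mean above 0 the lowest ratio fell on replicate 2 in 52.2%, so this order was common on these arrays. The genes whose 3 ratios were most like those of Agtr1a were Chmp2a, Akr1a1 and Mgp, with a root mean square difference of 0.079, 0.081 and 0.088 over the 3 arrays. For Agt they were Nnmt, Btla and Flot2, with 0.041, 0.052 and 0.064. Within 0.1 there were 4 genes for Agtr1a and 6 for Agt.

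Scaling moved every member in the same direction. With median centring the ratios were 1.34 for Agtr1a, 0.82 for Agtr1b, 1.33 for Mme, 1.29 for Enpep and 1.13 for Anpep, and with no dye normalization they were 1.70, 1.17, 1.69, 1.65 and 1.48. Against the median of all genes these 5 genes stood at 0.80, 0.49, 0.66, 0.67 and 0.59 with loess and at 1.08, 0.55, 1.07, 1.03 and 0.86 in both other scalings. Those scalings differ only by a constant per array, so their values against the median are the same by construction and make a single check. All 5 were above the typical gene with loess and in that check, while the size of the difference depended on the dye correction. Other genes of the system, such as Ctsa and Prep, were above the typical gene in that check too. Of all genes that passed, 30.6% were higher with loess, 79.6% with median centring and 96.3% with no dye normalization.

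**Figure D5:**
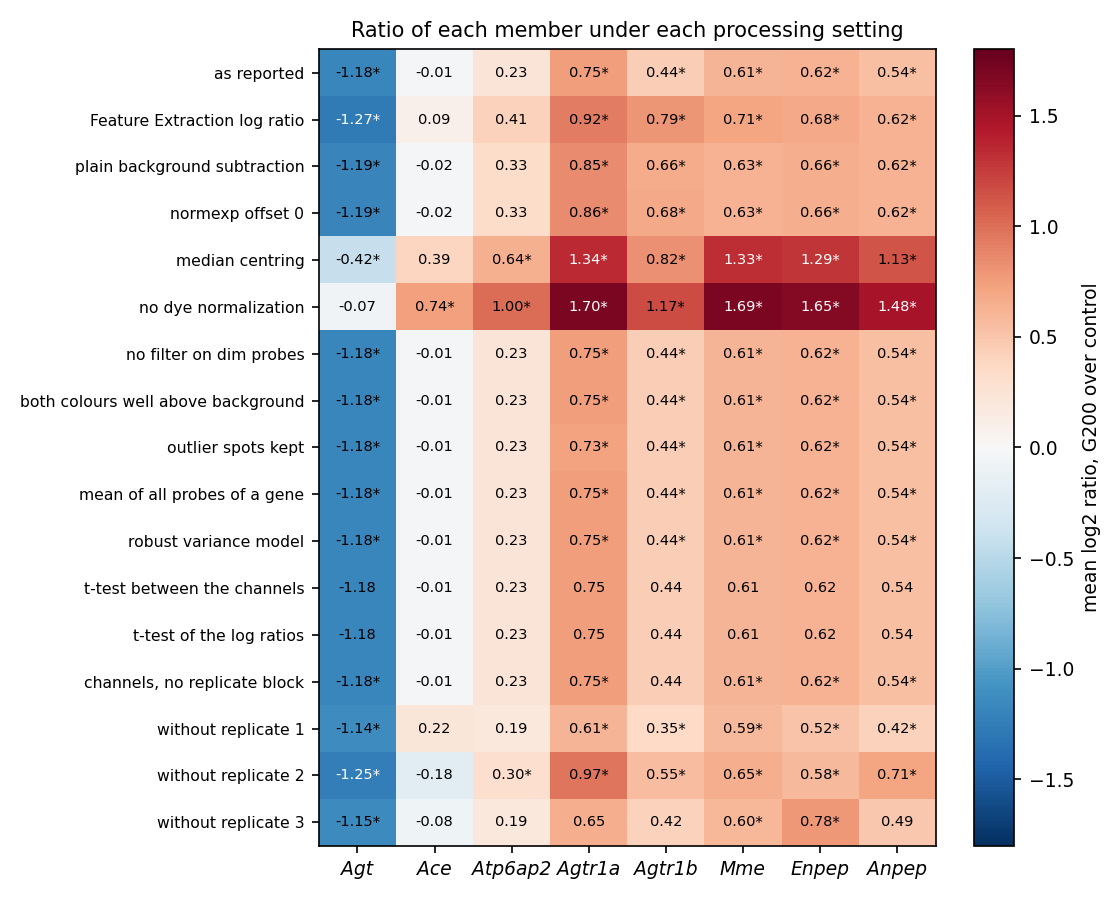
Mean log2 ratio of G200 over control (colour and printed value) of each member (columns) under each way of processing (rows), with a star where the adjusted p was under 0.05. Agtr1a, Agtr1b, Atp6ap2, Mme, Enpep and Anpep are positive in each row, Agt is negative in each row with −0.07 for no dye normalization, and Ace changes sign between rows.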

How the data were processed

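The authors scanned 3 arrays and deposited Agilent Feature Extraction tables. Per spot, these give a median intensity and a local background for green and for red, as well as a log10 ratio (red to green) that the authors' software had background-subtracted and dye-normalized. The file headers give Feature Extraction 11.5.1.1 and the submitters' processing notes 9.3.2.1. The deposited intensity was taken through limma 3.58.1 under R 4.3.3, with normexp (offset 50) for the background and loess per array for the dyes. Levels of single channels were then scaled between arrays on the mean log2 intensity (Aquantile). Control spots and spots with an outlier mark (635, 736 and 945 on replicates 1, 2 and 3) were left out, and repeated spots of a sequence were averaged. A RefSeq table of GRCr8 gave a symbol, through the accession, to 18355 of 30367 sequences (60.4%). A sequence was kept if a single colour exceeded background clearly, by the scanner's own mark, on each array (15649), and the brightest stood for its gene, which left 14179 genes, 8908 with a symbol and 5271 counted by accession or probe. That mark was carried in green by 59.8%, 62.7% and 62.3% of 42877 spots, and in red by 63.0%, 56.6% and 61.0%. No spot was saturated.

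Mean log2 ratios were set against 0 by limma (lmFit and eBayes, two-sided), and p-values were adjusted by Benjamini and Hochberg's method across the 14179 genes. Of 1390 sequences with at least 5 spots, 40 differed between arrays in green beyond the spread of repeated spots, against 738 in red. The control was therefore counted as 1 sample, and the test leaves out the spread between control rats. Whether the green RNA was the same on all arrays is not stated. Some control levels stood apart on replicate 1. Alb read 14.44, 15.74 and 15.93 in control on replicates 1, 2 and 3, and Prep 10.57, 11.13 and 11.15. Control and G200 of a replicate number are paired by the array they share. All arrays lay on 1 slide with 1 scan. The steps were tested on simulated data. The bar first set for the share of changes found was not met there, and it was replaced by a lower one with bars on bias and false calls.

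The members and lists were chosen with earlier results of these data known. The text names each member, each other gene of the system, every tested gene of a list with 5 or fewer, up to 4 genes past the threshold of the other lists, and the 3 genes nearest in pattern to the highest and the lowest member. Values of 4 genes from these lists are not reported here, although list counts and medians still hold them. Further genes not past the threshold were named after their values were seen. Alternatives covered background correction, dye normalization, filter, outlier spots, choice of sequence, variance model, test and single replicates.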

Additional observations from a re-analysis of the deposited data

How the results depend on the processing

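Agt stayed negative and Agtr1a, Agtr1b, Atp6ap2, Mme, Enpep and Anpep stayed positive under all 16 alternatives. Past the threshold were Agt in 13, Mme and Enpep in 14, Agtr1a and Anpep in 13, Agtr1b in 12, Atp6ap2 in 3 and Ace in 1.

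The number of members higher (5) was 0 by the methods' t-test between the channels and 0 by a t-test of the log ratios, and 2 to 6 without single replicates, the 2 being without replicate 3. The number lower (1) was 0 with no dye normalization and 0 by either t-test, and 1 without any replicate. Of all genes, 1629 were higher and 3689 lower. These counts were 4956 and 1268 with median centring, 8010 and 304 with no dye normalization, 61 and 288 by the t-test between the channels, and 0 and 2 by the t-test of the log ratios (4472 at an unadjusted p under 0.05). Channels fitted without the array as a block gave 1030 higher, and among the members that fit without the pairing by replicate ended only the call of Agtr1b (0.44, adjusted p = 0.0865). Without single replicates 171 to 1613 were higher and 1404 to 3364 lower, the smallest counts being without replicate 3. Of the other genes of the system, 4 were higher with median centring and 8 with no dye normalization, against 0. Those lower (3) were 1 with the deposited log ratio, 0 in either of these scalings and by either t-test, and 1 to 4 without single replicates.

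Signs turned mainly with the scaling. The median of all genes moved as well, to 0.27 with median centring and 0.62 with no dye normalization. A positive ratio in these scalings can thus still lie below the typical gene. With median centring and with no dye normalization the log2 ratios were 0.39 and 0.74 for Ace, 0.29 and 0.65 for Thop1, 0.089 and 0.44 for Nln, 0.29 and 0.64 for Agtrap, 0.53 and 0.89 for Atp6ap1, 0.074 and 0.43 for Ece1, 0.15 and 0.51 for Cspg4, 0.14 and 0.49 for Pecam1, 0.36 and 0.71 for Fdx1, and 0.37 and 0.72 for Cd68. With no dye normalization alone they turned to 0.15 for Hnf4a, 0.23 for Cyp21a1, 0.23 for Csf1r and 0.34 for Slc4a1, all below that median of 0.62. Ace was at 0.088 with the deposited log ratio. Without single replicates Ace ran from −0.18 to 0.22, Prep from −0.073 to 0.17 and Nln from −0.12 to 0.0066. Ratios of genes called higher also moved with the scaling. Pdgfra was at 1.06, Itga8 at 0.72, Cubn at 0.99, Lrp2 at 1.04, Aqp1 at 1.17 and Ednrb at 0.90 with median centring. With no dye normalization these were at 1.42, 1.08, 1.34, 1.40, 1.52 and 1.26. The cause of these changes was not tested.

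The limits are the 3 arrays, the dyes that were not exchanged, and a control counted as 1 sample. Ratios of dim spots are drawn towards 0 by the offset: with an offset of 0, Agtr1b was at 0.68 and Atp6ap2 at 0.33.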

Other observations

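Other cell types of the kidney were followed with lists of marker genes. In the thick ascending limb, distal tubule and collecting duct, 8 of 11 markers were tested, 1 was higher and 1 lower (2 and 3 at an unadjusted p under 0.05; median 0.10). Umod, the urinary protein uromodulin, was higher at 0.87 ± 0.10 (SD, n = 3; adjusted p = 0.00102). With median centring Umod was at 1.76 and with no dye normalization at 2.11. Slc4a1, the anion exchanger of red cells and intercalated cells, was lower at −0.68 ± 0.19 (adjusted p = 0.00345). It was at −0.017 with median centring (adjusted p = 0.937) and at 0.34 with no dye normalization, below the median of all genes there (0.27 and 0.62).

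Of 7 tested endothelial markers (median −0.05) Pecam1 was lower, at −0.56 ± 0.05 (adjusted p = 0.00234). Its ratio was positive under median centring (0.14) and no dye normalization (0.49), but below the median of all genes there (0.27 and 0.62). Of 6 tested stroma markers (median 0.07) the proteoglycan gene Dcn was higher, at 1.09 ± 0.37 (adjusted p = 0.00308). With median centring Dcn was at 1.69 and with no dye normalization at 2.05. None of 5 tested macrophage and lymphocyte markers passed in limma's test (median −0.11; at an unadjusted p under 0.05, 1 higher and 1 lower): Cd68 was at −0.11, Csf1r at −0.11, Adgre1 at 0.29 and Ptprc at 0.10. With no dye normalization the signs of Cd68 and Csf1r turned, to 0.72 and 0.23, beside a median of 0.62 for all genes. Csf1r was past the threshold as lower with the deposited log ratio (−0.53, adjusted p = 0.0194). As higher, Adgre1 was past it without replicate 2 (0.43, adjusted p = 0.0219), and Cd68, Adgre1 and Ptprc with no dye normalization (0.72, 0.79 and 0.75).

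The levels of single channels show where the spread between arrays lay. The control level of Ace had an SD of 0.005 over the 3 arrays and its G200 level an SD of 0.43. For Agtr1a these were 0.04 and 0.41, and for Anpep 0.04 and 0.33. Agtr1b, the dimmer receptor spot, had a wider control spread than these, with 0.13 and 0.33.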
